A study of Mus musculus with 8 samples.

Results

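The small heat shock proteins were followed in bulk testis RNA as a family of 9 genes, Hspb1, Hspb2, Hspb3, Hspb6, Hspb7, Hspb8, Hspb9, Hspb11 and Cryab, chosen by gene symbol among the 57690 rows of the deposited table. The family was picked because Hspb1 had been seen higher after treatment, so the group differences of its members are described here without p-values of their own. The question was whether the higher level of Hspb1 was shared. The 4 control libraries were made from testis of C57BL/6 males, 8 weeks old, given 2 intraperitoneal injections of 200 µg of an IgG2b isotype antibody. The 4 treated libraries came from mice of the same strain and age given 2 injections of 200 µg of an antibody against PD-L1, which restrains T cells by binding PD-1, and testes were taken 7 days after treatment. Whether each library came from its own animal is not stated in the labels, so errors and p-values cover the spread between the deposited libraries, which may be technical. Values are in TPM, which divides by transcript length and fixes the total of each library, so levels can be compared between genes but the read depth is unknown.

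Small heat shock proteins are chaperones that hold unfolding proteins without using ATP, share an alpha-crystallin domain and assemble into oligomers. Some, such as Hspb1 and Cryab, are induced by stress through heat shock factors, while others are set by tissue: Hspb2, Hspb3, Hspb6 and Hspb7 are known from muscle and Hspb9 from male germ cells. Hspb11 carries the family name but is a subunit of the intraflagellar transport complex that builds cilia and flagella, and lacks the family's domain.

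Hspb1, which encodes the stress-inducible chaperone that also binds actin filaments, was the member with the widest difference between the groups. The family was picked for that difference, so its rank within the family is not read as a result. It was at 22.37, 21.79, 17.01 and 22.77 TPM in IgG replicates 1 to 4 and at 24.50, 47.61, 57.69 and 29.88 TPM in anti-PD-L1 replicates 1 to 4. All anti-PD-L1 libraries lay above all IgG libraries, but anti-PD-L1 replicate 1 was close to the highest control and replicates 2 and 3 carried most of the difference. The means were 21.0 ± 2.68 TPM and 39.9 ± 15.4 TPM (SD, n = 4), a ratio of 1.90, and the spread within the treated group was wider than in the control group. In log2(TPM + 1), a scale that shrinks the change of weakly expressed genes, the difference of anti-PD-L1 minus IgG was 0.83 (SE 0.25 from the limma fit over all genes). Of 20343 genes tested 219 (1.08%) had a difference at least as large. As Hspb1 was picked for its difference, that share is not read as a result either. In bulk RNA more cells of a type and more RNA per cell cannot be told apart. Hspb1 lies on chromosome 5 from 135887919 to 135889563 (GRCm38, plus strand) in 2 exon blocks, with no other annotated gene overlapping it.

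IgG replicate 4 and anti-PD-L1 replicate 1 stood apart from the other libraries. They had 31572 and 31322 genes with a value above 0, against 29064 to 29904 in the other 6, and the lowest median correlations with the other libraries, 0.962 and 0.957 against 0.971 to 0.976. Without both, Hspb1 averaged 20.4 ± 2.94 TPM in the 3 remaining controls and 45.1 ± 14.1 TPM in the 3 treated libraries (SD, n = 3), a log2 difference of 1.07 (SE 0.24). For Hspb1, IgG replicate 4 was the highest control and anti-PD-L1 replicate 1 the lowest treated library. Leaving them out therefore had to widen the difference, and the wider value is not read as a result. The transcripts of testis cell types were present: the 8 markers of Leydig cells and the 8 of Sertoli cells on the lists used here all passed the filter, as did the 10 of spermatocytes and round spermatids. Of 8 epididymis and efferent duct markers, 2, Lcn5 and Lcn8, were listed at 0 in all 8 libraries. In the same list 1 gene, Rnase10, passed the filter, at 3.22 to 4.18 TPM.

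Heat shock factors bind repeats of GAA in alternating orientation, so the 300 bases around each transcription start (250 before and 50 after, RefSeq, GRCm38.p6) were searched on both strands for GAANNTTC and TTCNNGAA and for their 3-unit forms, in which a further unit follows after 2 more bases, so that both shorter forms also match inside them. RefSeq windows were found for 7 of the 9 genes, 8 windows in all, since Hspb6 had a second start, and Hspb2 and Cryab had none in the table. GAANNTTC occurred in 4 of the 8 windows (50%) and in 7.86% of 32851 windows over all genes, while none of the 8 held TTCNNGAA, found in 8.52% of all windows, or a 3-unit form, found in 0.603%. Hspb1 held 2 matches, GAAGTTTC from -117 to -110 and GAACCTTC from -97 to -90 relative to the start. The promoters of Hspb1, Hspb3 and Hspb7 are printed to show a window with 2 matches, with 1 and with none, as the 250 bases before the start, 5′ to 3′ on the gene's strand, with matches in capitals.

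Hspb1, chr5:135887669-135887918, plus strand: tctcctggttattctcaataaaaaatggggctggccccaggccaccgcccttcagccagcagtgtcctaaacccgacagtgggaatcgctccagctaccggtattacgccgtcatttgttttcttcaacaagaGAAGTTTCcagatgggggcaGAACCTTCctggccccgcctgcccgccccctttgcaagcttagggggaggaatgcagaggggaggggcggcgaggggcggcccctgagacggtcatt

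Hspb3, chr13:113663677-113663926, minus strand: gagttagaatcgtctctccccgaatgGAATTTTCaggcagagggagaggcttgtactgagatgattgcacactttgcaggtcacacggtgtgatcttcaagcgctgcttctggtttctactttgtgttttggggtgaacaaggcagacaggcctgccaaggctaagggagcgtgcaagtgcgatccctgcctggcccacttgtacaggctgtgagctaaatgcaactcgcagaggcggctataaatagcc

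Hspb7, chr4:141420529-141420778, plus strand: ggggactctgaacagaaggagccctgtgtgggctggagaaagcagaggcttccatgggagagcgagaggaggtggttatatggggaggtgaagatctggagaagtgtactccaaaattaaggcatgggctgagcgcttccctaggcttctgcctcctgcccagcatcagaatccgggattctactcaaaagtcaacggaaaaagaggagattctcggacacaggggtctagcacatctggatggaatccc

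The same 8 bases as the upstream match of Hspb1, GAAGTTTC, lay at -120 to -113 of the second start of Hspb6 and at 3 to 10 after the start of Hspb8. Hspb3 held GAATTTTC at -224 to -217. For comparison, 11 of 22 windows (50%) of a list of heat-inducible chaperones held either 2-unit form, against 15.1% of all windows, and 5 (22.7%) a 3-unit form. A match describes letters in a window and does not show that a factor binds there.

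**Figure D1:**
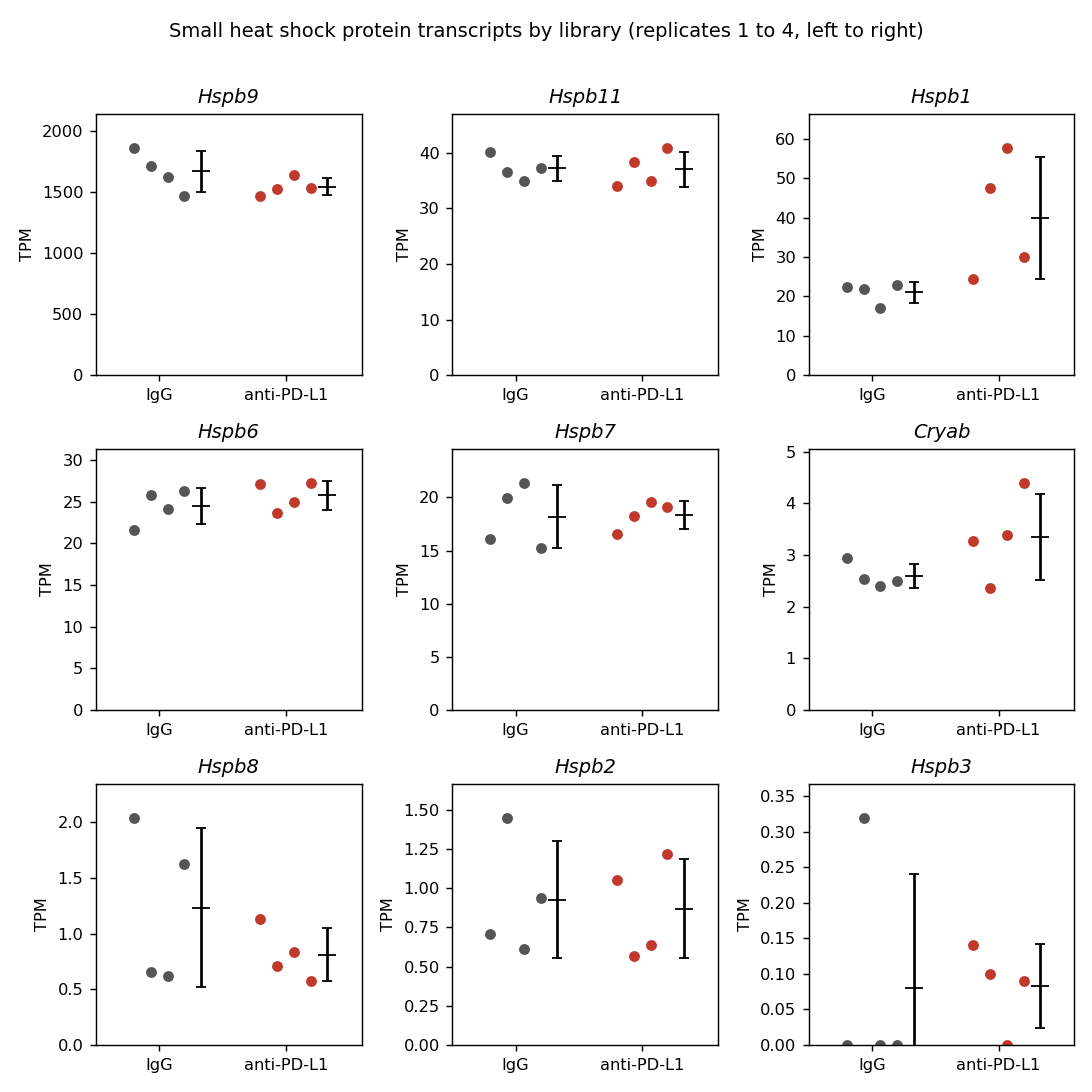
TPM of the 9 genes in each library, a panel per gene ordered by mean level, with replicates 1 to 4 from left to right and the group mean ± SD in black; each axis starts at 0. The groups overlap in every panel except Hspb1, where the anti-PD-L1 libraries run from 24.50 to 57.69 TPM and the IgG libraries from 17.01 to 22.77 TPM.

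Hspb9, the germ cell member, was by far the most abundant, and its libraries overlapped between the groups. It was at 1859.17, 1713.95, 1624.58 and 1467.55 TPM in the 4 controls and at 1469.61, 1525.33, 1634.74 and 1531.46 TPM after anti-PD-L1. The highest 2 values were both of the IgG group, and the 2 libraries that stand apart held the lowest value of their group. The means were 1666 ± 164 TPM and 1540 ± 68.8 TPM (SD, n = 4), a log2 difference of -0.11 (SE 0.07), or -0.05 without IgG replicate 1, -0.17 without IgG replicate 4. Hspb9 made up 92.0% to 94.6% of the summed TPM of the family in each library. It is a gene of 1 exon on chromosome 11, 100713850 to 100714575 (GRCm38, plus strand), and shares no exon with its neighbours.

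Hspb11, the transport subunit, was second in level and differed least. Its values were 40.20, 36.51, 34.91 and 37.22 TPM in the 4 controls and 34.08, 38.42, 34.86 and 40.89 TPM after anti-PD-L1, with means of 37.2 ± 2.22 TPM and 37.1 ± 3.17 TPM (SD, n = 4). The groups covered nearly the same range, and the log2 difference was -0.01 (SE 0.08), with a sign that changed under 5 of 17 alternatives.

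Hspb6 and Hspb7, both known from muscle, overlapped between the groups. Hspb6, which takes part in smooth muscle relaxation, was at 21.59, 25.85, 24.08 and 26.33 TPM in the 4 controls and at 27.13, 23.63, 24.95 and 27.27 TPM after anti-PD-L1. Its groups overlapped, and the log2 difference was 0.07 (SE 0.08), or 0.02 without IgG replicate 1. Hspb6 shares 122 exon bases with Proser3 and 3 with Lin37, both on the opposite strand, and the strand setting of the counting is not given in the sources used here, so part of its value is uncertain. Hspb7, the cardiovascular member, was at 16.10, 19.93, 21.37 and 15.26 TPM in the 4 controls and at 16.54, 18.24, 19.53 and 19.11 TPM after anti-PD-L1. The anti-PD-L1 values lay inside the IgG range, and its log2 difference of 0.02 (SE 0.12) changed sign under 7 of 17 alternatives, quantile normalization and median-ratio rescaling among them.

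Cryab, the alpha-B crystallin that protects desmin filaments in muscle, was low and came nearest to Hspb1 in direction. It was at 2.95, 2.53, 2.41 and 2.49 TPM in the 4 controls and at 3.27, 2.37, 3.39 and 4.40 TPM after anti-PD-L1. Replicates 1, 3 and 4 of the anti-PD-L1 group lay above all controls, and replicate 2, the second highest library for Hspb1, held the lowest Cryab value of all 8. The log2 difference was 0.26 (SE 0.16), or 0.15 without anti-PD-L1 replicate 4. Cryab, on chromosome 9 from 50751325 to 50756636 (GRCm38, plus strand), shares 252 exon bases with Hspb2 on the minus strand, 50751078 to 50752354, and without a stated strand setting reads there could belong to either gene.

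Hspb8, Hspb2 and Hspb3 were near or below 1 TPM. Hspb8, the partner of Bag3 in clearing misfolded proteins, was at 2.04, 0.65, 0.62 and 1.62 TPM in the 4 controls and at 1.13, 0.71, 0.83 and 0.57 TPM after anti-PD-L1. IgG replicates 1 and 4 were high and the rest overlapped. The log2 difference was -0.26 (SE 0.25), or -0.09 without IgG replicate 1, -0.16 without IgG replicate 4, -0.39 without IgG replicate 3 and -0.42 with a pseudocount of 0.1. Its mean of 1.02 TPM passed the filter only through the IgG group. Hspb2 lay between 0.61 and 1.45 TPM in controls and between 0.57 and 1.22 TPM after anti-PD-L1. Hspb3, which pairs with Hspb2 in muscle, was listed at 0 in 3 IgG libraries and 1 anti-PD-L1 library and reached at most 0.32 TPM.

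In order of mean level over the 8 libraries the family ran Hspb9, Hspb11, Hspb1, Hspb6, Hspb7, Cryab, Hspb8, Hspb2 and Hspb3. The ranges of neighbours in this order did not overlap except for Hspb11 with Hspb1, Hspb1 with Hspb6, and Hspb8 with Hspb2. Hspb1 exceeded Hspb6 in 4 of 8 libraries, IgG replicate 1 and anti-PD-L1 replicates 2, 3 and 4. Hspb1 held 16.8% to 21.4% of the summed TPM of the 8 members other than Hspb9 in the IgG libraries and 22.7% to 40.7% in the anti-PD-L1 libraries.

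The filter for the fit, a mean of 1 TPM or more, was met by 7 of the 9 genes, and Hspb2 and Hspb3 fell short. In limma, 0 (0%) of all 20343 genes tested were called at 0.05 after Benjamini-Hochberg adjustment, and 3% were higher and 2.22% lower at an unadjusted p under 0.05. Groups without overlap, anti-PD-L1 above IgG, were seen for 1 member, Hspb1, and for 1.76% of tested genes, and the reverse for 0 members and 1.23% of tested genes. Since Hspb1 was picked for this difference, nothing is read from these counts. Over all 9 members 5 log2 differences were above 0 and 4 below, and 58.3% of tested genes were above 0. The median of the 9 was 0.01 and that of the 8 without Hspb1 was 0.003, beside 0.03 for all tested genes.

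**Figure D2:**
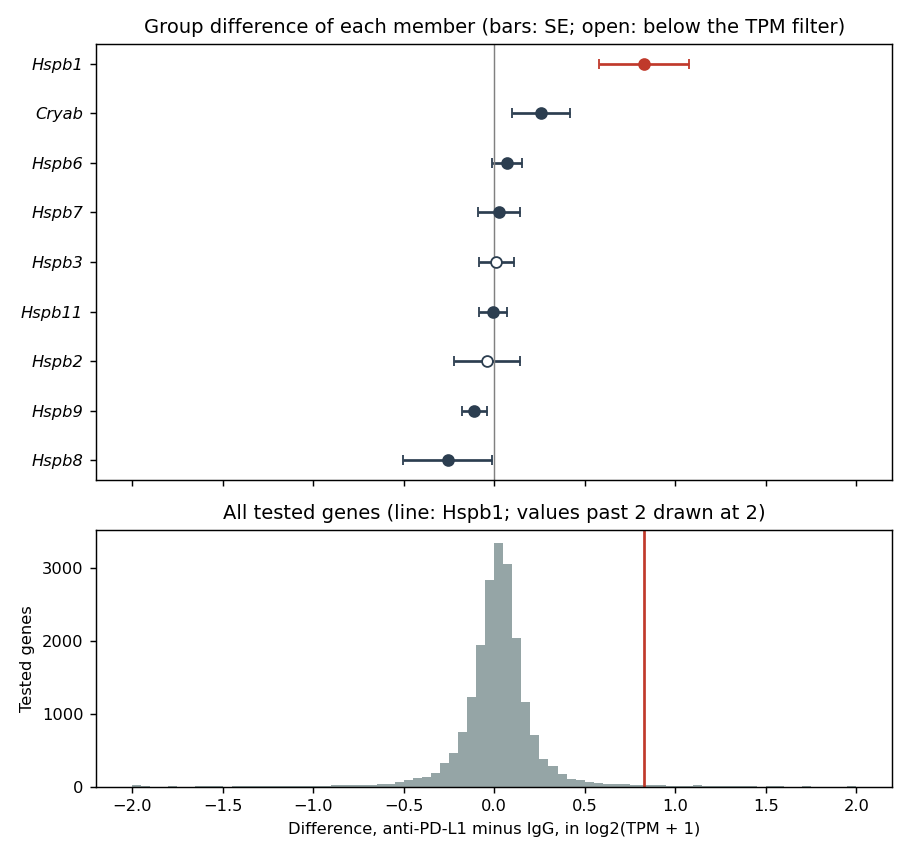
Upper panel: difference of anti-PD-L1 minus IgG in log2(TPM + 1) for each gene with its SE, open circles for genes below the filter. Lower panel: the same difference for 20343 tested genes, with a line at Hspb1 (0.83); the other 8 members lie between -0.26 and 0.26.

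Across the 8 libraries the members did not follow Hspb1. Pearson correlations of log2(TPM + 1) between Hspb1 and the 7 other members with a value above 0 in every library ran from -0.35 with Hspb2 to 0.26 with Cryab, and after centring on the group means from -0.46 with Hspb6 to 0.35 with Hspb9. The points share their libraries and the TPM scale, and these values are descriptions over 8 points. Among the 5 genes most like Hspb1 within the groups, the highest of 13441 candidates by the centred correlation, were Srrd (0.98), Tmem178b (0.97), Tomm70a (0.97), a receptor of mitochondrial import, and Sult4a1 (0.97). Their group differences were small beside that of Hspb1: -0.03 (SE 0.09) for Srrd, -0.20 (SE 0.33) for Tmem178b, 0.11 (SE 0.06) for Tomm70a and 0.003 (SE 0.16) for Sult4a1, all in log2(TPM + 1). Tomm70a, at 37.51 to 39.78 TPM in IgG and 39.98 to 44.98 TPM in anti-PD-L1 libraries, did not overlap between the groups. The same was seen for 1.76% of tested genes, and the groups overlapped for Srrd, Tmem178b and Sult4a1.

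Relatives outside the 9 genes were read next. Odf1, also called HSPB10, a protein of the outer dense fibres of the sperm tail, was at 2091 ± 108 TPM in controls and at 2006 ± 134 TPM after anti-PD-L1 (SD, n = 4), a log2 difference of -0.06 (SE 0.06). Cryaa, the lens crystallin, reached at most 0.12 TPM and was not tested.

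Other stress-response genes were set beside Hspb1, which was picked for its difference, so that theirs were smaller is not read as a result. Of 19 heat-inducible chaperones and co-chaperones, all of which passed the filter, 0 passed in limma after Benjamini-Hochberg adjustment and 0 reached an unadjusted p under 0.05. Over all tested genes 3% were higher and 2.22% lower at that threshold, so for 19 genes a count of 0 is near the background. Log2 differences were above 0 for 12 and below for 7, with a median of 0.03 beside 0.03 for all tested genes, a median that was -0.004 without anti-PD-L1 replicate 2 or 3 and -0.003 without replicate 4. Hsp90aa1, the inducible Hsp90, was at 951 ± 41.8 TPM in controls and at 1004 ± 74.2 TPM after anti-PD-L1 (SD, n = 4), a log2 difference of 0.08 (SE 0.06). Hspa4l, an Hsp110 relative abundant in germ cells, differed by -0.03 (SE 0.04), Fkbp4, a co-chaperone of steroid receptors, by 0.002 (SE 0.05), Hsp90ab1 by 0.03 (SE 0.09), the constitutive Hspa8 by 0.04 (SE 0.09) and Dnaja1 by 0.01 (SE 0.05). The classic inducible Hsp70 genes, Hspa1a and Hspa1b, chosen after their values were seen, differed by -0.17 (SE 0.13) and -0.19 (SE 0.12), and as near-identical copies their separate values are uncertain. Bag3, the partner of Hspb8, likewise chosen afterwards, differed by -0.01 (SE 0.07).

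**Figure D3:**
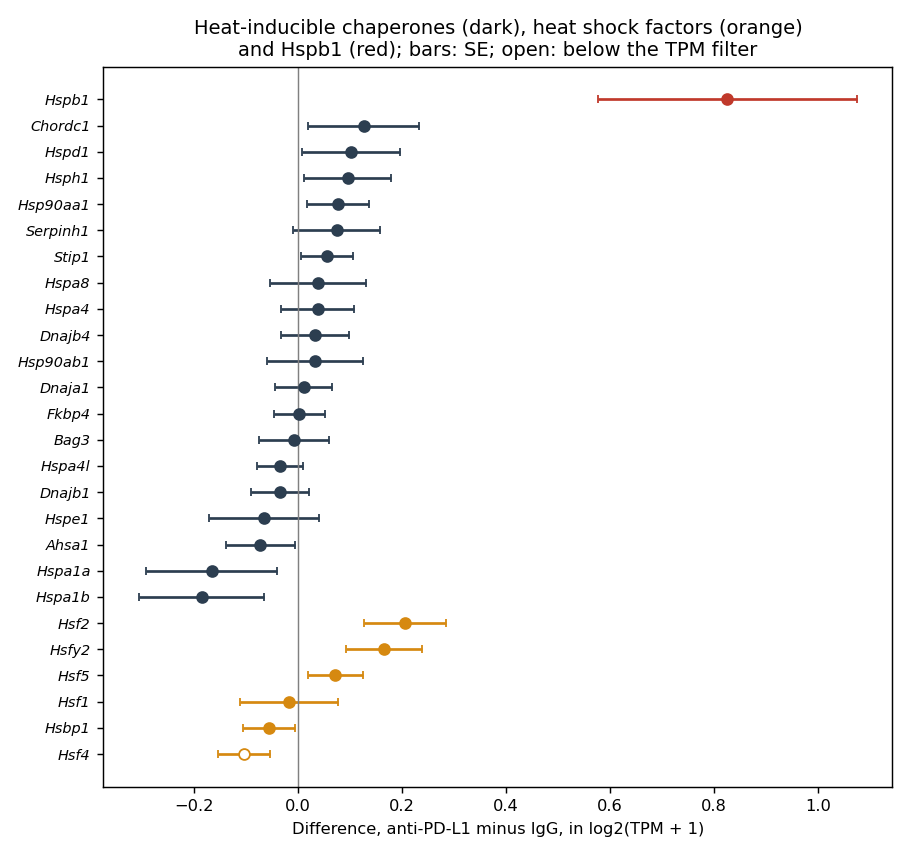
Difference of anti-PD-L1 minus IgG in log2(TPM + 1) with its SE for 19 heat-inducible chaperones, 6 heat shock factor genes and Hspb1, an open circle for a gene below the filter. Hspb1, picked for its difference, stands at 0.83 and every chaperone between -0.19 and 0.13.

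Among heat shock factors and their regulator, 5 of 6 genes were tested and 0 passed after adjustment. At an unadjusted p under 0.05, 2 were higher, Hsf2 and Hsfy2, beside 3% of all tested genes. Hsfy2, a germ cell factor of this family, was at 86.0 ± 8.07 TPM and at 96.4 ± 5.29 TPM (SD, n = 4), a log2 difference of 0.17 (SE 0.07). Hsbp1, which restrains heat shock factors, differed by -0.06 (SE 0.05). Hsf1, the main stress sensor, chosen after its values were seen, differed by -0.02 (SE 0.09).

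The intraflagellar transport partners of Hspb11 were all tested, 16 of 16, and 0 passed after adjustment. At an unadjusted p under 0.05, 2 were higher, beside 3% of all tested genes. The median was 0.03, or 0.008 without anti-PD-L1 replicate 4, 0.06 with array quality weights and -0.001 after quantile normalization. Ift172, the most abundant, differed by -0.07 (SE 0.04) and Ift74 by 0.06 (SE 0.04).

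Levels of other cell types were set beside Hspb1, and in the lists below 0 genes passed in limma after Benjamini-Hochberg adjustment. Of 8 Leydig cell markers 2, Insl3 and Hsd3b1, were higher at an unadjusted p under 0.05, beside 3% of all tested genes. The summed TPM of the 8 ran from 1212 to 1577 in the IgG libraries and from 2172 to 3435 in the anti-PD-L1 libraries and did not overlap. That gap came from Insl3, the Leydig peptide hormone gene, at 998.2, 751.46, 833.55 and 911.9 TPM in the 4 controls and at 1755.63, 2447.21, 3028.48 and 1609.77 TPM after anti-PD-L1. The libraries highest for Insl3, anti-PD-L1 replicates 3 and 2, were also highest for Hspb1. The correlation over 8 libraries was 0.92, or 0.87 after centring on the group means. Both genes had all anti-PD-L1 libraries above all controls, so the first value partly reflects that gap. Genes named above, picked for the highest centred values, lay above this by selection, such as Srrd (0.98), whose groups overlapped. The other 7 Leydig markers summed to 528 ± 56.7 TPM and 532 ± 105 TPM (SD, n = 4) and correlated with Hspb1 at -0.09, a split made after the values were seen. Cyp17a1, the second most abundant of the list, differed by -0.06 (SE 0.19). The part of Leydig cells in the Hspb1 difference was not tested.

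**Figure D4:**
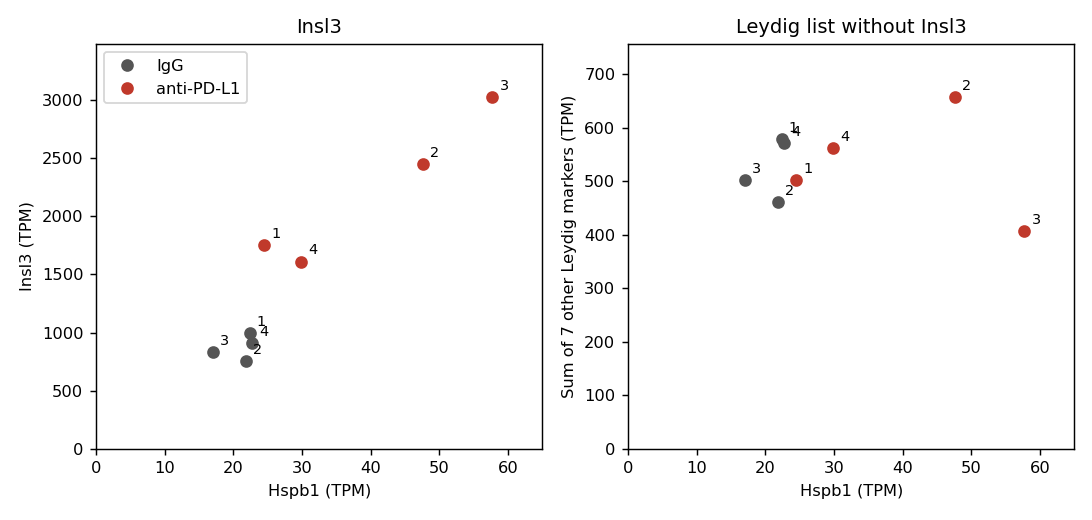
TPM of Hspb1 (x axis) against Insl3 (left) and against the sum of the 7 other Leydig markers (right) in each library, labelled by replicate number. Insl3 is highest, at 3028.48 TPM, in the library with the highest Hspb1, 57.69 TPM, while the sum of the other markers is lowest there.

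Muscle, vessel and macrophage lists held 0 genes at an unadjusted p under 0.05, beside 3% higher and 2.22% lower of all tested genes. For lists this short that count is near the background. The summed TPM of all but the endothelial list overlapped between the groups. Smooth muscle and peritubular myoid markers, 9 of 10 tested, summed to 592 to 650 TPM in IgG and 565 to 642 TPM in anti-PD-L1 libraries. Actg2, at 375 to 455 TPM over the 8 libraries, made up most of that sum, so it mainly follows this gene. By contrast Acta2 was at 47.5 to 57.5 TPM. On the log2 scale Actg2 was at -0.07 (SE 0.07), Myl9 at -0.03 (SE 0.11) and Acta2 at -0.08 (SE 0.07). Striated muscle markers, 3 of 10 tested, summed to 13.6 to 23.1 TPM and 15.3 to 18.8 TPM, with Actn3 at 0.004 (SE 0.13) and Mylpf at 0.15 (SE 0.34). Endothelial markers, 7 of 8 tested, summed to 26.4 to 30.3 TPM and 21.4 to 26.2 TPM, so that every anti-PD-L1 library lay below every control; Egfl7 was at -0.25 (SE 0.16) and Cldn5 at -0.15 (SE 0.09), and their part in the Hspb1 difference was not tested. Macrophage markers, 7 of 8 tested, summed to 51.0 to 61.8 TPM and 57.9 to 72.2 TPM, with C1qa at 0.12 (SE 0.16) and C1qb at 0.16 (SE 0.08). Of the 7 tested, 5 were above 0 and 2 below, Csf1r at -0.19 (SE 0.16) and Adgre1 at -0.01 (SE 0.24).

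Sertoli cell markers, 8 of 8 tested, also overlapped, at 1129 to 1295 TPM and 1085 to 1489 TPM, with Clu at 0.08 (SE 0.10) and Aard at -0.01 (SE 0.08). Spermatocyte and round spermatid markers summed to 1410 to 1582 TPM and 1524 to 1684 TPM. At an unadjusted p under 0.05, 3 of 10 were higher, beside 3% of all tested genes. The acrosomal gene Spaca1 was 1 of the 3, at 0.30 (SE 0.12), and Acrv1 was at 0.15 (SE 0.09). Adipocyte markers, 5 of 8 tested, were below 0 in all 5, while 58.3% of all tested genes were above 0. Cfd and Car3 passed the filter only through the IgG group, so their sign is not read as a result. Their means were 8.335 and 6.45 TPM in IgG and 0.38 and 0.44 TPM in anti-PD-L1 libraries. The list summed to 9.93 to 94.6 TPM in IgG and 7.12 to 12.2 TPM in anti-PD-L1 libraries. Its median log2 difference was -1.59, the value of Car3, or -0.77 without IgG replicate 1. Adipoq differed by -0.52 (SE 0.18), with an unadjusted p under 0.05, reached by 2.22% of tested genes in that direction, and Fabp4 by -1.67 (SE 0.76). Of the epididymis list only Rnase10 was tested, at -0.01 (SE 0.12), and Crisp1 stayed below 1 TPM.

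Immediate-early genes, which respond to stress and handling, were above 0 in 6 of 6 tested out of 9 listed, beside 58.3% of all tested genes. Below the filter, Fos was at 0.20 (SE 0.20), while Fosb at -0.07 (SE 0.21) and Atf3 at -0.11 (SE 0.16) went the other way. The median of the 6 tested was 0.13 (0.23 without IgG replicate 4, or 0.05 with anti-PD-L1 replicate 4 left out). At an unadjusted p under 0.05, 1 was higher, beside 3% of all tested genes. That gene was Dusp1, a phosphatase of stress-activated kinases, at 8.08 ± 2.07 TPM in controls and at 12.7 ± 2.75 TPM after anti-PD-L1 (SD, n = 4), a log2 difference of 0.60 (SE 0.19). Junb differed by 0.16 (SE 0.16). The summed TPM of the list was 24.6 to 38.5 in IgG and 32.4 to 37.7 in anti-PD-L1 libraries, so the groups overlapped, and its part in the Hspb1 difference was not tested.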

How the data were processed

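The authors deposited 1 table of TPM, with 8 columns that each match a sample title, their group means and gene lengths, per the file headers; the 8 columns each summed to about 1000000. Per the labels' protocols, RNA was isolated with TRIzol, cleared of DNA by DNase I and sequenced from Illumina TruSeq libraries. CASAVA 1.8, HISAT2, StringTie, RSEM and build mm10 are named in the submitters' processing notes; the annotation, strand setting and order of steps were not given in the sources used here. Since TPM keeps no depth, no counting intervals are given. Titles gave the groups and replicate numbers.

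The members and lists were chosen with earlier results of these data known. Values were taken as log2(TPM + 1), with a pseudocount of 1. Genes averaging 1 TPM or more were fitted in limma 3.58.1 (R 4.3.3) with an intensity trend and a group term, and p-values were adjusted by Benjamini-Hochberg over all 20343 genes at 0.05. The fit was tested on simulated data. Alternatives were a pseudocount of 0.1, no filter or 5 TPM, quantile or median-ratio scaling, no trend, array weights, a replicate block and libraries left out. Named genes were all members, the 2 most abundant genes of each of 14 lists, 6 for the chaperones, and the 5 genes most like Hspb1, of which 1 is not reported here. Gene positions came from GENCODE M21 (GRCm38), promoter sequences from RefSeq. Protein sequences were not used here.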

Additional observations from a re-analysis of the deposited data

Results flagged for a closer look

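In 92 groups of 4 libraries examined for the genes named here, 8 had a sample whose gap to the nearest other, as a share of the group's range, exceeded Dixon's critical value, where chance gives about 1 in 20. Hspb3, Cryaa and Crisp1 lay near 0 TPM, where a single value above 0 can pass this rule. The count of 8 is therefore not read against that rate. Hspb1 in IgG replicate 3 was at 17.01 TPM, with the other controls at 21.79 to 22.77 TPM. Hspb3 in IgG replicate 2 was at 0.32 TPM with the others listed at 0. Cryaa was at 0.12 TPM in IgG replicate 2 and at 0.1 TPM in anti-PD-L1 replicate 3, with the others of each group listed at 0. Hsbp1 was low in both libraries that stand apart, at 392.3 TPM in IgG replicate 4 against 439.36 to 441.38 TPM, and at 390.35 TPM in anti-PD-L1 replicate 1 against 415.68 to 419.99 TPM. Ift74 was at 123.67 TPM in anti-PD-L1 replicate 1 against 130.65 to 130.78 TPM. Crisp1 was at 0.27 TPM in IgG replicate 4 against 0 to 0.04 TPM.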

How the results depend on the processing

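The log2 difference of Hspb1 was above 0 under all 17 alternatives, from 0.63 without anti-PD-L1 replicate 3 to 1.07 without both libraries that stand apart. Its groups did not overlap, so leaving out libraries could not change that sign. The filter, trend and replicate block settings leave the difference itself unchanged. Each of the 7 tested members moved by less than its spread between replicates (1 SD). Leaving out 1 library could not move a member that far, so little is read from this. The count of genes past an adjusted p of 0.05 in limma was 0 as designed, 1 with a pseudocount of 0.1, 5 with array quality weights, 8 without both libraries that stand apart, and 0 to 15 when 1 library was left out, the highest with IgG replicate 4 left out, then 3 with anti-PD-L1 replicate 4 left out and 1 for IgG replicate 2 or anti-PD-L1 replicate 1. At an unadjusted p under 0.05, 611 genes were higher and 452 lower as designed; 1371 and 784 with array quality weights, 1281 higher without IgG replicate 4, 1337 higher without both libraries that stand apart, and 296 lower with a filter of 5 TPM. None of the genes past the adjusted threshold was a gene of the lists. The replicate block gave 0 calls, and Hspb1 differed by 0.83 (SE 0.27) with it; deviations of libraries with the same number correlated from -0.20 to 0.10, so the numbers were not treated as pairs. Hspb8 and Cryab could not be fitted with a filter of 5 TPM. TPM without counts limits what can be said of Hspb2, Hspb3 and Hspb8. The median of the macrophage markers, 0.12, was -0.01 without anti-PD-L1 replicate 1, and that of the immediate-early genes was 0.38 with a filter of 5 TPM.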

Other observations

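Within the family, Hspb7 and Hspb8 ran against each other over the 8 libraries, with a correlation of -0.87, or -0.91 after centring on the group means, and Hspb2 and Hspb6 ran together, at 0.68 and 0.76. Hspb8 lay near 1 TPM and Hspb2 below it, the 28 pairs were not tested, and the points share their libraries. Ift81 and Traf3ip1, intraflagellar transport partners of Hspb11 chosen after their values were seen, had all anti-PD-L1 libraries above all IgG libraries, at log2 differences of 0.19 and 0.17, which was seen for 1.76% of tested genes.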
